A study of Homo sapiens with 15 samples.

Results

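The 7 genes described here make up the core of the aryl hydrocarbon receptor pathway: *AHR*, its partners *ARNT* and *ARNT2*, the cytochrome P450 genes *CYP1A1* and *CYP1B1*, and the feedback genes *AHRR* and *TIPARP*. They were found by symbol among the 58219 Ensembl genes of the deposited count table, where each of the 7 matched 1 gene. RNA was sequenced from BEAS-2B, an immortalized line of human bronchial epithelial cells, in 15 libraries of 5 conditions with 3 independent experiments each. In the 24-h protocol, cells were left with vehicle or exposed to PM2.5 at 1 µg/cm2 or at 30 µg/cm2, the PM2.5 being fine particles collected on filters in Beijing and brought into water by sonication. In the 7-d protocol, cells were given vehicle or, each day, PM2.5 at 1 µg/cm2, with washing between exposures. The labels give 7 such exposures, whereas the methods give 6 with collection on day 7. All libraries come from the same line, grown in serum-free medium on collagen, so the spread between experiments is a spread between cultures of 1 line.

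The aryl hydrocarbon receptor is a transcription factor of the bHLH-PAS family that waits in the cytoplasm in a complex with chaperones. When it binds a planar aromatic ligand, such as a polycyclic hydrocarbon from combustion, it moves to the nucleus, pairs with *ARNT* and binds xenobiotic response elements that share the core GCGTG. *CYP1A1* and *CYP1B1* encode enzymes that oxidize such hydrocarbons, while *AHRR* encodes a repressor that competes with the receptor for *ARNT* and *TIPARP* an enzyme that ADP-ribosylates the receptor and limits its activity. *CYP1A1* is the classical readout of the pathway in airway cells exposed to smoke or combustion particles.

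The promoter sequences of the members show how densely this core occurs upstream of them. RefSeq promoters (GRCh38.p14) were found for 5 of the 7 members, and *CYP1B1* and *ARNT2* had no entry. The 250 bases before the start of *CYP1A1* are shown because this gene has the largest changes below, with the GCGTG core in capitals (chr15:74725529-74725778, minus strand).
CYP1A1 promoter: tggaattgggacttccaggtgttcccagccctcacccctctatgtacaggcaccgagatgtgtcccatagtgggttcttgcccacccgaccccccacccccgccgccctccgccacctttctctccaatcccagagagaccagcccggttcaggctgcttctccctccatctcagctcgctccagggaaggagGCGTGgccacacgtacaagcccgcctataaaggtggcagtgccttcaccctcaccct

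This stretch holds 1 core, and 36.5% of the 35116 RefSeq promoters of 300 bases hold at least 1 on either strand. Farther upstream, the 1500 bases before the start of *CYP1A1* hold 10 cores, GCGTG or its reverse complement CACGC, as many as or more than which were found in 0.629% of windows of that length (median 1). In 5 of the 10, the core stands within the longer motif TNGCGTG, which overlaps it. Each is shown 5′ to 3′ on the strand of its gene with 8 bases on either side, the 5 bases of the core in capitals and the distance of the core from the start in the name, together with the only matches to the longer motif upstream of the starts of *AHRR* and *TIPARP*.
CYP1A1 at 1385 bases (chr15:74726901-74726921): gagctaggCACGCaaatacaa
CYP1A1 at 1059 bases (chr15:74726575-74726595): cccccctcGCGTGactgcgag
CYP1A1 at 986 bases (chr15:74726502-74726522): gtccttctCACGCaacgcctg
CYP1A1 at 898 bases (chr15:74726414-74726434): cgccggcgCACGCaagctagc
CYP1A1 at 503 bases (chr15:74726019-74726039): gcgcttctCACGCgagccggg
AHRR at 30 bases from the first of 2 starts (chr5:321676-321696): ggcggctcGCGTGccggggtg
TIPARP at 674 bases from the last of 3 starts (chr3:156675982-156676002): gcgcgcttGCGTGtgtacgcg

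The windows before the 2 starts of *AHRR* overlap and hold 4 and 8 cores, some of them in both. As many or more were found in 18.5% and 1.8% of all windows. Those before the 3 starts of *TIPARP* hold 6, 6 and 2, and the first 2 windows hold the same 6 cores. The shares for *TIPARP* were 5.9%, 5.9% and 48.9%. The window of *ARNT* holds 5 cores, with 2 matches to the longer motif, and that of *AHR* holds 0. At least 5 cores were found in 10.6% of all windows. At least 1 core was found in 72.9% of all windows and at least 1 match to the longer motif in 23.2%. These are matches of letters, and binding was not measured here.

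The libraries hold 21460981 to 34724765 counts on genes (median 29243177), and all 7 genes passed the filter on low counts, which kept 17599 genes for testing. Expression is given in CPM, counts per 1e6 counted reads after TMM scaling, with the SD over 3 experiments. A gene was called where the edgeR quasi-likelihood test that the study's methods name, fitted here to all 15 libraries, gave a p below 0.05 after Benjamini-Hochberg adjustment over all genes tested, together with a log2 fold-change of 0.6 or more in size. The 3 libraries of 24-h experiment 2 stood apart from those of experiments 1 and 3, with deviations from their group means over all genes that correlated at 0.542 to 0.721 with each other and negatively with every library of the other experiments in another group. Deviations cancel out within a group, so part of these negative correlations follows from the calculation. Libraries of experiment 1 correlated at 0.0998 to 0.453 with those of experiment 3 in another group. Results are therefore also given without the libraries of experiment 2, which leaves 2 libraries in each 24-h group. This choice was made from the spread in these same data, so p-values of those fits are not independent of it. Replicate numbers mark experimental batches in the series record, and a fit with the number as a replicate block is given where it changes a call. The 7 bronchial epithelial markers examined were detected in every library. At 30 µg/cm2, 5 of them fell, *KRT5*, *KRT7*, *KRT8*, *KRT19* and *CDH1*, beside 8.07% of all genes tested called in either direction. After daily exposure 1 fell, *KRT5*, beside 0.227% (with the replicate block also *CDH1* and *KRT19*, beside 4.39%). At 1 µg/cm2, 0 of the 7 markers were called by edgeR or DESeq2 (1 at an unadjusted p under 0.05). Their summed level was 3650 to 4160 CPM in the 24-h controls, 3210 to 4060 CPM at 1 µg/cm2, 1560 to 2620 CPM at 30 µg/cm2, 2950 to 3510 CPM in the 7-d controls and 1930 to 2210 CPM after daily exposure, and its part in the results was not tested. Of the 4 leukocyte markers, *LYZ* was at 0 in all 15 libraries and *PTPRC* in 14, whereas *CD14* had 10.9 to 12.9 CPM in the 24-h controls, 14.2 to 23.4 CPM at 1 µg/cm2 and 2.30 to 17.9 CPM at 30 µg/cm2. The 3 endothelial markers summed to at most 0.345 CPM. The 3 fibroblast markers summed to 25.7 to 56.2 CPM in the 24-h controls, 32.9 to 38.1 CPM at 1 µg/cm2 and 14.1 to 20.4 CPM at 30 µg/cm2. In the 7-d protocol they summed to 25.8 to 33.7 CPM in the controls and 16.2 to 21.6 CPM after daily exposure. Treated and control libraries did not overlap in this sum at 30 µg/cm2 and after daily exposure. Treated groups wholly below their controls were found for 11.1% and 21.6% of all genes tested. Most of the sum was *PDGFRB*. From control to 30 µg/cm2, mean CPM went from 5.40 to 5.79 for *DCN* and from 0.749 to 0.771 for *LUM*. From 7-d control to daily exposure they went from 6.17 to 4.40 and from 0.692 to 0.663. Of the 3 fibroblast markers, *PDGFRB* fell at 30 µg/cm2 (log2 fold-change -1.60, edgeR adjusted p = 0.00429). It was called lower after daily exposure only with the block or without 24-h experiment 2. The part of these markers in the results was not tested either. In bulk RNA, fewer expressing cells and less RNA per cell cannot be told apart.

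**Figure D1:**
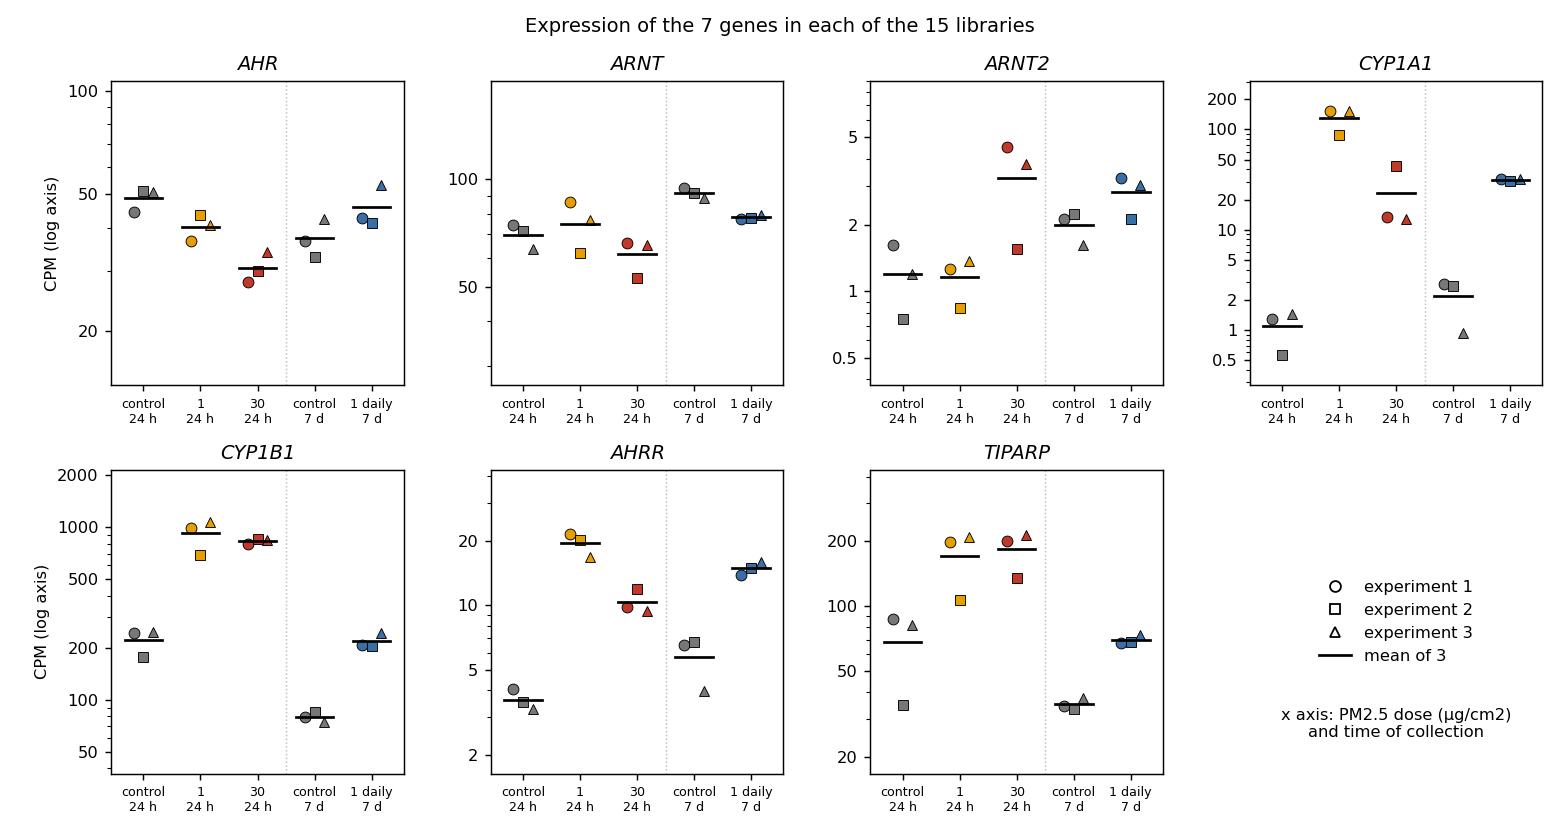
CPM of each of the 7 genes (y axis, log scale, with its own range per panel) in the 15 libraries, by PM2.5 dose in µg/cm2 and time (x axis). Points are libraries, shaped by experiment, and lines are means of 3. *CYP1A1* lies at 88.9 to 152 CPM at 1 µg/cm2 and at 12.9 to 42.9 CPM at 30 µg/cm2, whereas *AHR* is lowest at 30 µg/cm2.

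After 24 h, the receptor and its targets moved in opposite directions at the higher dose. At 30 µg/cm2, 6 of the 7 genes were called against control, with *CYP1A1*, *CYP1B1*, *AHRR*, *TIPARP* and *ARNT2* higher and *AHR* lower, beside 8.07% of all genes tested (3.82% higher and 4.24% lower). At 1 µg/cm2, 3 of the 7 were called, *CYP1A1*, *AHRR* and *CYP1B1*, all higher, beside 0.0625% of all genes tested (0.0455% higher and 0.0170% lower). They had the 3 highest log2 fold-changes of the 8 genes called higher at this dose. Both comparisons share the same 3 control libraries. The median log2 fold-change of the 7 genes was 1.43 at 30 µg/cm2 and 1.33 at 1 µg/cm2, beside 0.03 and 0.01 over all genes tested.

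*AHR* (ENSG00000106546.12, chromosome 7 from 17298622 to 17346152), the receptor itself, was present at 44.5, 51.2 and 50.9 CPM in the 24-h controls, at 36.7, 43.6 and 40.6 CPM after 1 µg/cm2 and at 27.9, 29.9 and 34.0 CPM after 30 µg/cm2. The 3 groups did not overlap, with every library at 1 µg/cm2 below every control and every library at 30 µg/cm2 lower still. Groups that do not overlap with the treated lower were found for 2.13% of all genes tested at 1 µg/cm2 and for 11.1% at 30 µg/cm2. Between the 2 doses, 21.6% of all genes tested had groups that do not overlap, in either direction. The fitted log2 fold-change at 30 µg/cm2 was -0.68 (SE 0.139, edgeR adjusted p = 0.00714), a 1.60-fold fall, and without experiment 2 it was -0.64. In a fit of the 6 compared libraries alone, the value was again -0.68 but the edgeR adjusted p was 0.0685. For 1 µg/cm2 the log2 fold-change was -0.28 (SE 0.139, edgeR adjusted p = 1.0). Between 30 and 1 µg/cm2 it was -0.40 (edgeR adjusted p = 0.0902), and with the replicate block the adjusted p was 0.00301 at a size below the 0.6 threshold.

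In the 7-d protocol, *AHR* had 36.5, 32.8 and 42.5 CPM in the controls and 42.8, 41.3 and 53.4 CPM after daily exposure, so the treated libraries lay higher within each experiment while the groups overlapped. The log2 fold-change was 0.30 (SE 0.139, edgeR adjusted p = 0.42). The exons of *AHR* share 35.6% of their bases with an unnamed gene on the same strand, which had 0 counts in every library. Counted per length of all its exons, *AHR* stood at the 64.8th percentile of the 17599 genes in the 24-h controls and at the 54.8th at 30 µg/cm2. Its mean in the 24-h controls was 7.33 CPM per kb of all exons and 12.1 CPM per kb of the bases shared with no other gene. No read on the bases shared with the unnamed gene was counted for that gene. Whether such reads were counted for *AHR* was not given in the sources used here.

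*ARNT* (ENSG00000143437.20, chromosome 1 from 150809705 to 150876768), the common partner of the receptor, was not called in any comparison with a control. Its levels were 63.6 to 74.4 CPM in the 24-h controls, 62.0 to 86.4 CPM at 1 µg/cm2 and 53.0 to 66.4 CPM at 30 µg/cm2, and these ranges overlap. The log2 fold-changes were 0.10 at 1 µg/cm2 and -0.18 at 30 µg/cm2, both with an SE of 0.13. After daily exposure, *ARNT* was at 77.5, 77.8 and 79.3 CPM against 94.2, 91.7 and 88.3 CPM in the 7-d controls. The treated libraries all lay below the controls, which 21.6% of all genes tested also showed, and the log2 fold-change of -0.23 (SE 0.13) missed both thresholds (edgeR adjusted p = 0.533).

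*ARNT2* (ENSG00000172379.20, chromosome 15 from 80404350 to 80597937), a second partner best known from neural tissue, was expressed at the lowest level of the 7 genes per length in the 24-h controls. It had 1.63, 0.753 and 1.2 CPM in the 24-h controls, 1.26, 0.843 and 1.37 CPM at 1 µg/cm2 and 4.50, 1.56 and 3.78 CPM at 30 µg/cm2. The values at 30 µg/cm2 were the highest of each experiment, although experiment 2 at that dose lay within the range of the controls. *ARNT2* rose against control with a log2 fold-change of 1.43 (SE 0.379, edgeR adjusted p = 0.0271) and against 1 µg/cm2 with 1.49 (SE 0.381, edgeR adjusted p = 0.0247), on 16 to 137 counts per library. Without experiment 2 these were 1.53 and 1.64. The call against control was lost when Control_24h replicate 2 or 3, or PM_24h_30dose replicate 1 or 3, was left out (edgeR adjusted p = 0.0826 to 0.15), and in the fit of the compared libraries alone (edgeR adjusted p = 0.177). In the 7-d protocol it was at 1.63 to 2.25 CPM in controls and 2.14 to 3.27 CPM after daily exposure, a log2 fold-change of 0.49 (SE 0.365, edgeR adjusted p = 0.651).

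*CYP1A1* (ENSG00000140465.13, chromosome 15 from 74719542 to 74725610), the enzyme most closely tied to receptor activity, was almost silent in control cells. It had 1.29, 0.565 and 1.45 CPM in the 24-h controls, from 43, 12 and 41 counts. After 1 µg/cm2 it had 152, 88.9 and 152 CPM, and after 30 µg/cm2 it had 13.4, 42.9 and 12.9 CPM. No library of 1 group overlapped another, and the level was highest at the lower dose in each experiment. Treated groups wholly above their controls were found for 2.31% of all genes tested at 1 µg/cm2 and for 11.7% at 30 µg/cm2. The log2 fold-change at 1 µg/cm2 was 6.85 (SE 0.592, edgeR adjusted p = 0.000105), a 115-fold rise, and without experiment 2 it was 6.80. For 30 µg/cm2 it was 4.34 (SE 0.547, edgeR adjusted p = 0.000253), a 20.3-fold rise.

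The rise of *CYP1A1* at 30 µg/cm2 was uneven across experiments. The treated library had 10.3 times the CPM of its control in experiment 1, 75.9 times in experiment 2 and 8.87 times in experiment 3. Experiment 2 had both the lowest control and the highest treated value at this dose. Without experiment 2 the log2 fold-change was 3.25 (SE 0.272, edgeR adjusted p = 1.31e-07), a 9.49-fold rise. The folds within experiments at 1 µg/cm2 were 118, 157 and 105.

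*CYP1B1* (ENSG00000138061.11, chromosome 2 from 38066973 to 38109902), an enzyme of the same family with a broader basal expression, was already abundant in control cells. It had 244, 176 and 245 CPM in the 24-h controls, 990, 686 and 1070 CPM at 1 µg/cm2 and 791, 848 and 842 CPM at 30 µg/cm2. Every treated library lay above every control, whereas the 2 doses overlapped. *CYP1B1* rose with a log2 fold-change of 2.05 (SE 0.176, edgeR adjusted p = 0.000105) at 1 µg/cm2 and 1.90 (SE 0.175, edgeR adjusted p = 2.7e-05) at 30 µg/cm2. Without experiment 2 these were 2.09 and 1.73. In a fit of the 6 compared libraries alone, the edgeR adjusted p at 1 µg/cm2 was 0.228 at an unmoved log2 fold-change of 2.05. *CYP1B1* shares 13.0% of its exon bases with other genes, mostly *CYP1B1-AS1* on the opposite strand. The strand used in counting was not given in the sources used here, and *CYP1B1-AS1* had at most 99 counts in a library, against at least 2077 for *CYP1B1*.

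*AHRR* (ENSG00000063438.16, chromosome 5 from 304176 to 438291), the repressor, had 4.06, 3.53 and 3.26 CPM in the 24-h controls, 21.5, 20.1 and 16.8 CPM at 1 µg/cm2 and 9.83, 11.9 and 9.43 CPM at 30 µg/cm2. The 3 groups did not overlap, and 1 µg/cm2 gave the highest values, as for *CYP1A1*. *AHRR* rose with a log2 fold-change of 2.42 (SE 0.202, edgeR adjusted p = 0.000105), 5.36-fold, at 1 µg/cm2 and 1.52 (SE 0.199, edgeR adjusted p = 0.000323), 2.87-fold, at 30 µg/cm2. Without experiment 2 these were 2.39 and 1.38. Of its exon bases, 3.18% also belong to *PDCD6* on the same strand, a gene at 117 to 180 CPM on average per condition, and how shared reads were assigned was not given in the sources used here.

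*TIPARP* (ENSG00000163659.12, chromosome 3 from 156673235 to 156706770), the ADP-ribosyltransferase, had 87.6, 34.9 and 82.1 CPM in the 24-h controls, 198, 107 and 210 CPM at 1 µg/cm2 and 202, 136 and 215 CPM at 30 µg/cm2. Experiment 2 was the lowest library of each group, and the treated libraries still lay above every control at both doses. *TIPARP* rose at 30 µg/cm2 with a log2 fold-change of 1.43 (SE 0.309, edgeR adjusted p = 0.00922). The log2 fold-change at 1 µg/cm2 was 1.33 (SE 0.308, edgeR adjusted p = 0.395) and was not called. With the replicate block it was 1.37 (SE 0.116, edgeR adjusted p = 0.000136) and was called, one of 0.420% of genes called in that fit. Without experiment 2 it was 1.28 and was also called (edgeR adjusted p = 8.27e-08), one of 2.11% of genes. The call at 30 µg/cm2 was lost in the fit of the compared libraries alone (edgeR adjusted p = 0.0938). Within experiments, *TIPARP* was 2.26-, 3.07- and 2.56-fold its control at 1 µg/cm2 and 2.31-, 3.91- and 2.61-fold at 30 µg/cm2.

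**Figure D2:**
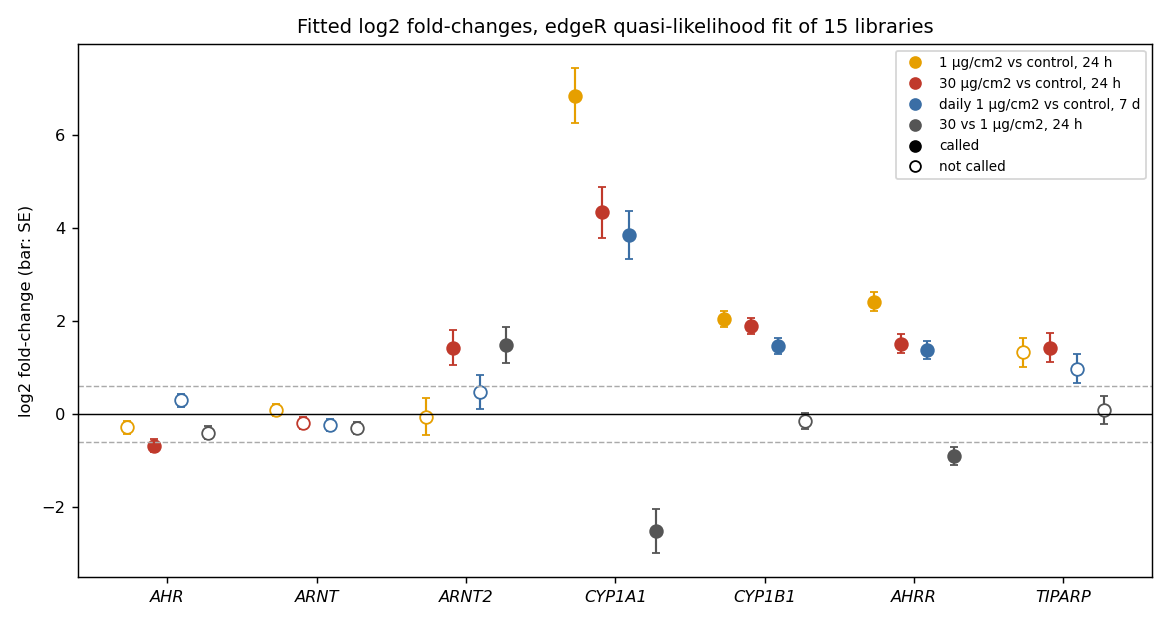
Fitted log2 fold-change (y axis, bars show the SE) of the 7 genes in 4 comparisons. Filled points were called, and dashed lines mark the size threshold of 0.6. *CYP1A1* at 1 µg/cm2 has the highest value, 6.85, and *AHR* at 30 µg/cm2 is called below 0, at -0.68.

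The direct comparison of the doses separated the 4 induced genes. Between 30 and 1 µg/cm2, 3 of the 7 genes were called, *CYP1A1* and *AHRR* lower and *ARNT2* higher, beside 7.84% of all genes tested (3.62% higher and 4.22% lower). *CYP1A1* had a log2 fold-change of -2.51 (SE 0.465, edgeR adjusted p = 0.00411) and was 5.68-fold lower at 30 µg/cm2. *AHRR* had a log2 fold-change of -0.90 (SE 0.191, edgeR adjusted p = 0.00875) and was 1.87-fold lower. *CYP1B1* and *TIPARP* were not called, with log2 fold-changes of -0.15 (SE 0.169, edgeR adjusted p = 0.654) and 0.10 (SE 0.302, edgeR adjusted p = 0.884).

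*CYP1A1* was lower at 30 than at 1 µg/cm2 in each experiment, by 11.4-fold in experiment 1, 2.07-fold in experiment 2 and 11.8-fold in experiment 3. Without experiment 2, its log2 fold-change between the doses was -3.56 (SE 0.199, edgeR adjusted p = 1.5e-09). *AHRR* was 2.18-, 1.69- and 1.78-fold lower in the 3 experiments. *CYP1B1* was 1.25- and 1.28-fold lower in experiments 1 and 3 and 1.24-fold higher in experiment 2. Without experiment 2, *CYP1B1* had a log2 fold-change of -0.36 between the doses (edgeR adjusted p = 0.00729), short of the size threshold, and *TIPARP* one of 0.00. In a fit of the 6 libraries of both doses alone, none of the 7 genes was called by edgeR (adjusted p = 0.0853 for *CYP1A1*, 0.0761 for *AHRR* and 0.187 for *ARNT2*), while 4 had an unadjusted p under 0.05. *AHRR* lost its call when PM_24h_30dose replicate 3 was left out (edgeR adjusted p = 0.0522). *ARNT2* lost its call in 5 of the 15 fits that left out 1 library, without any PM_24h_1dose replicate (edgeR adjusted p = 0.067, 0.0631 and 0.0522 for replicates 1, 2 and 3) and without PM_24h_30dose replicate 1 (0.136) or 3 (0.0931). *CYP1A1* stayed called without PM_24h_30dose replicate 3.

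**Figure D3:**
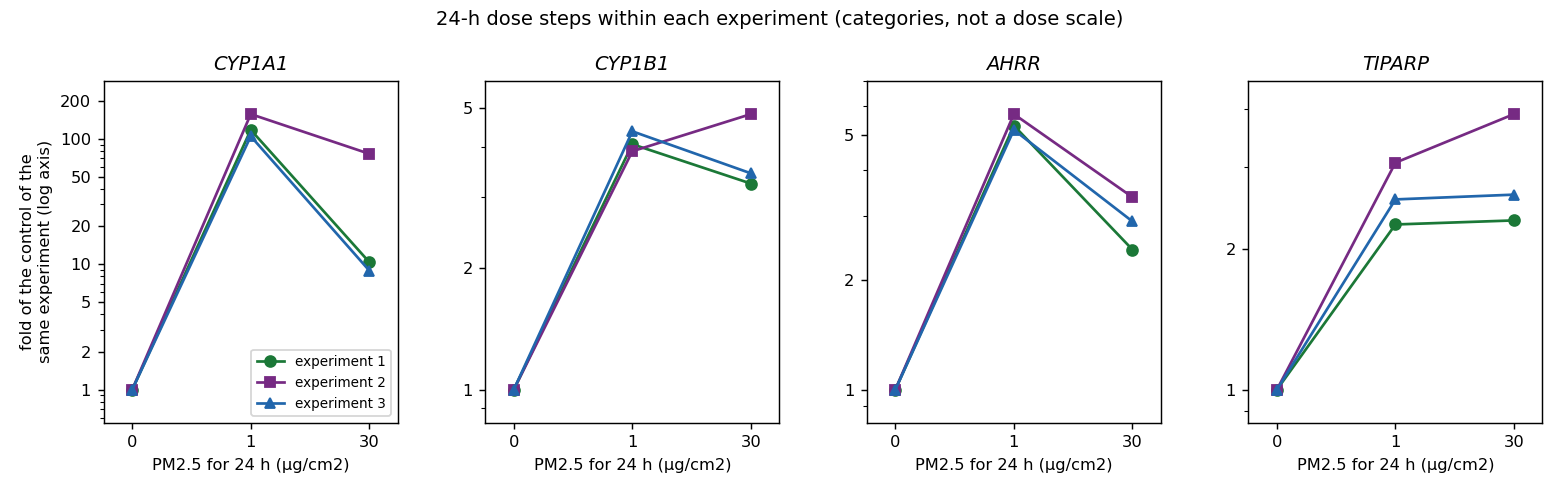
CPM of the 4 induced genes as a fold of the control of the same experiment (y axis, log scale) by the dose of PM2.5 given for 24 h, 0, 1 or 30 µg/cm2 (x axis, drawn as equal steps). Each line is 1 experiment. *CYP1A1* and *AHRR* drop from 1 to 30 µg/cm2 in every experiment, *CYP1B1* in experiments 1 and 3, and *TIPARP* stays level or goes higher.

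Daily exposure to 1 µg/cm2 left the same enzymes and repressor raised at day 7. *CYP1A1*, *CYP1B1* and *AHRR* were called, 3 of the 7 genes, all higher, beside 0.227% of all genes tested (0.102% higher and 0.125% lower). *CYP1A1* had 2.89, 2.76 and 0.941 CPM in the 7-d controls and 32.2, 30.5 and 32.1 CPM after daily exposure, a log2 fold-change of 3.85 (SE 0.516, edgeR adjusted p = 0.00975) and a 14.5-fold rise. The treated libraries differed little, while the control of experiment 3 lay well below the others. Folds within experiments were accordingly 11.2, 11 and 34.1.

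*CYP1B1* had 78.9, 84.9 and 74.5 CPM in the 7-d controls and 208, 203 and 244 CPM after daily exposure, a log2 fold-change of 1.46 (SE 0.173, edgeR adjusted p = 0.00675). *AHRR* had 6.54, 6.75 and 3.98 CPM in the controls and 13.9, 14.9 and 15.9 CPM after exposure, a log2 fold-change of 1.38 (SE 0.194, edgeR adjusted p = 0.0151). *TIPARP* had 34.5, 33.5 and 37.5 CPM in the controls and 67.4, 68.0 and 73.3 CPM after exposure. For all 4 genes every treated library lay above every control, as was found for 21.3% of all genes tested. *TIPARP* missed the adjusted threshold with a log2 fold-change of 0.98 (SE 0.307, edgeR adjusted p = 0.207) in the fit without a block. With the replicate block it had 0.98 (SE 0.117, edgeR adjusted p = 0.0015) and was called, beside 4.39% of genes in that fit. Without 24-h experiment 2 it was called as well (edgeR adjusted p = 6.04e-07), beside 6.03% of genes in that fit.

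The calls after daily exposure depended on the libraries fitted. In a fit of the 6 compared libraries alone, 4 of the 7 genes were called, *TIPARP* included (edgeR adjusted p = 4.21e-05 for *CYP1A1* and for *CYP1B1*, 0.000578 for *AHRR* and 5.44e-05 for *TIPARP*), beside 6.23% of the 16506 genes tested in it. In the fits that left out 1 library of all 15, *CYP1A1*, *CYP1B1* and *AHRR* were all not called by edgeR when Control_7d replicate 1, Control_7d replicate 3 or PM_7d_1dose replicate 3 was left out, with adjusted p-values of 0.0524 to 0.0926. *CYP1A1* also lost its call without Control_7d replicate 2 and *AHRR* without PM_7d_1dose replicate 2. The log2 fold-change of *CYP1A1* stayed between 3.48 and 4.09 over all 15 such fits.

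Whether the response to daily exposure differed from the response to a single dose was tested as the difference of both fold-changes. Against the single dose of 1 µg/cm2, 0 of the 7 genes were called by edgeR, beside 0.00% of all genes tested. An unadjusted p under 0.05 was reached by 4 of the 7 genes and by 1245 of all genes tested. The difference of log2 fold-changes was -3.00 (SE 0.712, edgeR adjusted p = 0.351) for *CYP1A1*, -1.05 (SE 0.274, edgeR adjusted p = 0.409) for *AHRR* and -0.59 (SE 0.24, edgeR adjusted p = 0.658) for *CYP1B1*. DESeq2 called *CYP1A1* and *AHRR*, and the edgeR likelihood ratio test called *CYP1A1*. Without 24-h experiment 2, *CYP1A1* at -2.93, *AHRR* at -1.0 and *CYP1B1* at -0.63 were all called as smaller after daily exposure, 3 of the 7 genes beside 9.84% of all genes in that fit. With the replicate block, none of the 7 was called, with an edgeR adjusted p of 0.0786 for *CYP1A1* and 0.0584 for *AHRR*, among 1.03% of all genes called in that fit.

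Against the single dose of 30 µg/cm2, 1 of the 7 genes was called, *AHR*, beside 1.82% of all genes tested (0.841% higher and 0.977% lower). The 2 fold-changes lay on opposite sides of 0, at -0.68 after the single dose, which was called, and at 0.30 after daily exposure, which was not, and their difference was 0.97 (SE 0.196, edgeR adjusted p = 0.0227). *CYP1A1* had a difference of -0.49 (SE 0.708, edgeR adjusted p = 0.773), which turned to 0.62 without experiment 2. The SE leaves room for a difference in either direction.

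The controls of both protocols also differed from each other. Of the 7 genes, 3 were called between 7-d and 24-h controls, *CYP1B1* and *TIPARP* lower and *AHRR* higher at 7 d, beside 21.9% of all genes tested (11.1% higher and 10.8% lower). The log2 fold-changes were -1.48 for *CYP1B1* (SE 0.173, edgeR adjusted p = 5.49e-05), -0.96 for *TIPARP* (SE 0.307, edgeR adjusted p = 0.0314) and 0.67 for *AHRR* (SE 0.198, edgeR adjusted p = 0.0223). *TIPARP* lost this call when Control_24h replicate 1 or 3 or any Control_7d library was left out, and *AHRR* when Control_24h replicate 2 or 3 or Control_7d replicate 1 or 2 was left out, or when the 6 control libraries alone were fitted. Time in culture and protocol cannot be told apart in this comparison. As a result, *CYP1B1* after daily exposure, at 203 to 244 CPM, stood within the range of the untreated 24-h controls, at 176 to 245 CPM.

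The order of conditions by mean level differed between the genes. *CYP1A1* was highest at 1 µg/cm2 for 24 h, at 131 ± 36.6 CPM (SD, n = 3). It was followed by daily exposure at 31.6 ± 0.975 CPM and 30 µg/cm2 at 23.0 ± 17.2 CPM, whose libraries overlap, and then by the 7-d controls at 2.20 ± 1.09 CPM and the 24-h controls at 1.10 ± 0.473 CPM, which overlap as well. *AHRR* followed the same order in its treated groups, with 19.5 ± 2.38 CPM at 1 µg/cm2, 14.9 ± 1.02 CPM after daily exposure and 10.4 ± 1.32 CPM at 30 µg/cm2, and these 3 groups did not overlap. *CYP1B1* was highest in both 24-h treatments, at 917 ± 205 and 827 ± 31.2 CPM, which overlap. *TIPARP* was at 184 ± 42.0 CPM at 30 µg/cm2 and 172 ± 56.4 CPM at 1 µg/cm2, which also overlap. *AHR* alone of the 7 genes had its highest mean in the 24-h controls, at 48.9 ± 3.81 CPM, which overlapped with daily exposure at 45.8 ± 6.60 CPM.

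Compared per length of exon within each library, the balance between the 2 enzymes shifted with exposure. *CYP1B1* had 127 ± 44.4 times the level of *CYP1A1* in the 24-h controls and 26.1 ± 16.6 times in the 7-d controls (SD, n = 3). The ratio was 4.05 ± 0.346 at 1 µg/cm2 for 24 h and 3.94 ± 0.345 after daily exposure, nearly equal values at different times and absolute levels. At 30 µg/cm2 it was 27.5 ± 14.1, with 33.8 and 37.3 in experiments 1 and 3 and 11.3 in experiment 2. *CYP1A1* made up 11.5% to 13.4% of the summed CPM of *CYP1A1* and *CYP1B1* in the 6 libraries of 1 µg/cm2, single or daily, 1.51% to 4.81% at 30 µg/cm2 and 0.319% to 3.53% in controls.

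The ratio of repressor to receptor, *AHRR* over *AHR* per length, was 0.0649 ± 0.0126 in the 24-h controls and 0.138 ± 0.0508 in the 7-d controls (SD, n = 3). It was 0.422 ± 0.0763 at 1 µg/cm2, 0.297 ± 0.0524 at 30 µg/cm2 and 0.285 ± 0.0276 after daily exposure. With only the exon bases shared with no other gene taken as length, the means were 0.0408 in the 24-h controls and 0.0869 in the 7-d controls. By that length they were 0.265 at 1 µg/cm2, 0.187 at 30 µg/cm2 and 0.179 after daily exposure. The repressor thus stayed below the receptor in transcript level in every library, with the highest ratio over all exon bases, 0.507, in experiment 1 at 1 µg/cm2. *ARNT* exceeded *ARNT2* in every library, by 76.7 ± 31.6 times in the 24-h controls, 78.6 ± 10.7 times at 1 µg/cm2 and 26.1 ± 12.4 times at 30 µg/cm2.

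**Figure D4:**
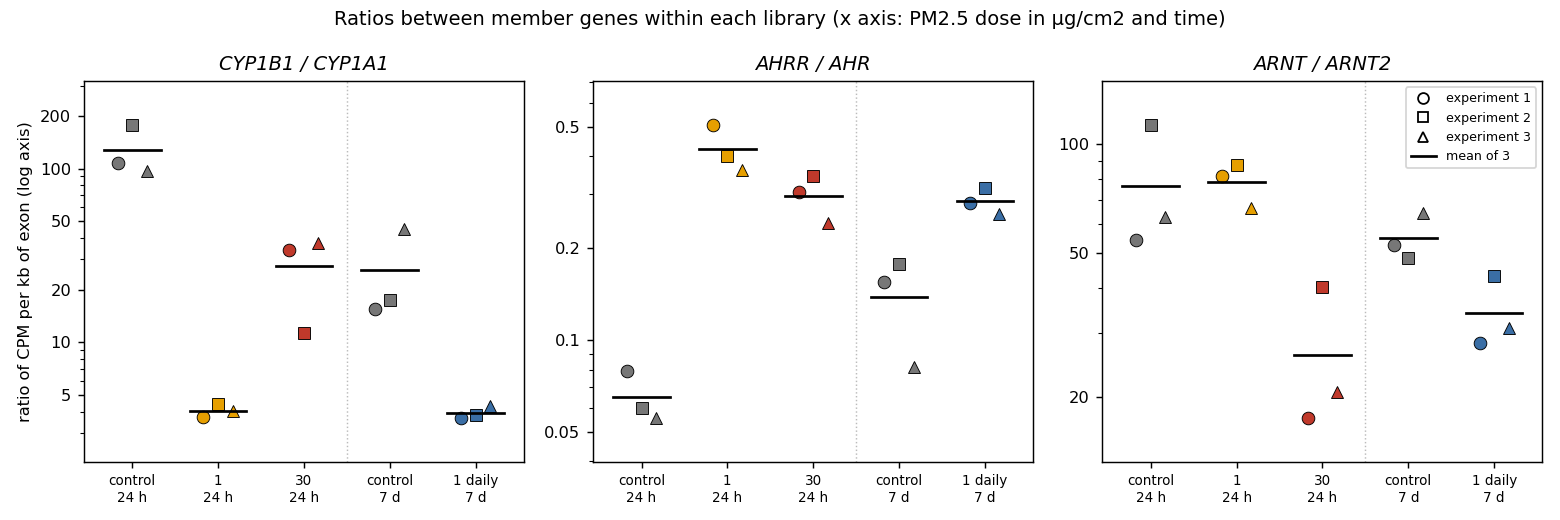
Ratios of CPM per kb of exon (y axis, log scale) between *CYP1B1* and *CYP1A1*, *AHRR* and *AHR*, and *ARNT* and *ARNT2* in each of the 15 libraries, by PM2.5 dose in µg/cm2 and time (x axis). Points are libraries, shaped by experiment, and lines are means of 3. *CYP1B1* over *CYP1A1* is near 4.05 at 1 µg/cm2 and 3.94 after daily exposure, and *AHRR* over *AHR* stays below 1 throughout.

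Other genes described as receptor targets were examined as lists. Of the 7 other genes of the classical battery, 2 passed the filter on low counts, *NQO1* and *ALDH3A1*, while *CYP1A2*, *GSTA1*, *GSTA2*, *UGT1A1* and *UGT1A6* did not. *NQO1*, a quinone reductase that is also a target of *NFE2L2*, rose at 30 µg/cm2 with a log2 fold-change of 1.95 (SE 0.171, edgeR adjusted p = 2.08e-05) and was higher than at 1 µg/cm2 by 1.03 (SE 0.167, edgeR adjusted p = 0.00179), a dose order opposite to that of *CYP1A1* and *AHRR*. Its value at 1 µg/cm2 was 0.91 (SE 0.167, edgeR adjusted p = 0.0964), and it was called with the replicate block and by DESeq2. *ALDH3A1*, an aldehyde dehydrogenase, had 1.28 to 6.92 CPM in the 24-h controls and 9.35 to 31.6 CPM at 1 µg/cm2, a log2 fold-change of 2.41 (SE 0.905, edgeR adjusted p = 1.0), and was also called with the block. Without experiment 2, both genes were called higher at 1 µg/cm2, *ALDH3A1* lower at 30 µg/cm2 and *ALDH3A1* higher after daily exposure.

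Of 13 further genes described as targets, 12 were tested and *IDO1* was not. At 30 µg/cm2, 4 were called, all higher, beside 3.82% of all genes tested. These were the cytokine gene *IL1B*, the growth factor gene *EREG*, the amino acid transporter gene *SLC7A5* and the protease inhibitor gene *SERPINB2*. Their log2 fold-changes were 2.45, 2.12, 1.13 and 4.86, and the median of the 12 was 0.97. Among these 12, only *SLC7A5* was called at 1 µg/cm2, with 1.34 (SE 0.129, edgeR adjusted p = 0.000292), and the median was 0.15. *IL1B* was called there too with the replicate block, beside 0.420% of all genes. At 30 µg/cm2 the filaggrin gene *FLG* and the actin-severing gene *SCIN* joined the other 4 with the block, beside 2681 of the 17599 genes. After daily exposure 0 of the 12 were called by the edgeR quasi-likelihood fit without a block or by DESeq2, and *SLC7A5* had 0.46. An unadjusted p under 0.05 was reached by 4 in each, beside 11.9% and 13.4% of all genes. *SERPINB2* was called higher after daily exposure with the block, and *IL1B* and *SERPINB2* without 24-h experiment 2. *IL1B*, *EREG* and *SERPINB2* were higher at 30 than at 1 µg/cm2, by 1.19, 2.60 and 3.48. Without experiment 2, 8 of the 12 were called at 30 µg/cm2, beside 19.1% of all genes in that fit, and 3 at 1 µg/cm2, beside 2.11%.

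Of 16 genes of polycyclic hydrocarbon metabolism outside the P450 family, which include the epoxide hydrolase *EPHX1*, glutathione transferases and aldo-keto reductases, 2 were called at 30 µg/cm2, beside 8.07% of all genes tested. With the replicate block 5 were called, of which *CYB5A* lower, beside 2681 of the 17599 genes. *AKR1C1* and *AKR1C2* rose, with log2 fold-changes of 1.72 (SE 0.336, edgeR adjusted p = 0.00514) and 2.10 (SE 0.431, edgeR adjusted p = 0.00686). These paralogs are nearly identical in sequence, so the assignment of reads between them is uncertain. At 1 µg/cm2 and after daily exposure 0 of the 16 were called by edgeR, with or without the block, or DESeq2 and 1 had an unadjusted p under 0.05 in each without the block, and their medians of 0.20 and 0.01 stood beside 0.01 for all genes in both comparisons. Without experiment 2, *AKR1C2* and *AKR1C3* were called at 1 µg/cm2, beside 2.11% of all genes in that fit.

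**Figure D5:**
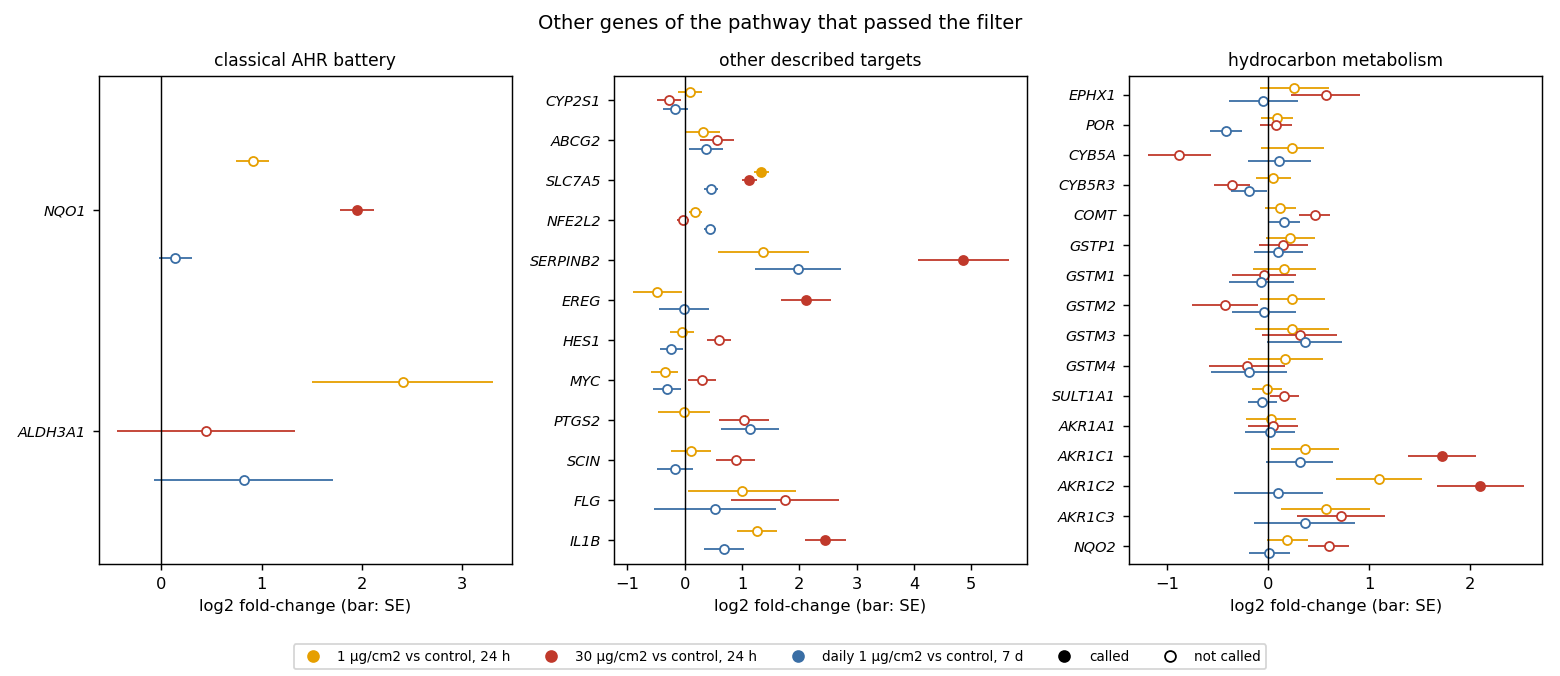
Log2 fold-changes (x axis, bars show the SE) of the other pathway genes that passed the filter, in 3 groups, for 1 and 30 µg/cm2 at 24 h and daily exposure at 7 d against control. Filled points were called in the fit without a block. *NQO1*, *IL1B*, *EREG*, *SERPINB2*, *AKR1C1* and *AKR1C2* are called at 30 µg/cm2 only, and *SLC7A5* at both single doses.

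To find genes outside the 7 members with a pattern like that of *CYP1A1*, *CYP1B1* and *AHRR*, a mean standardised profile of these 3 was made. The log2 CPM of each tested gene was correlated with this profile over the 15 libraries, and the members were left out of the ranking. The libraries share conditions and experiments, so the correlations are a description. The 10 most alike were *SLC7A5* (r = 0.93), *CADM1* (0.895), *NKD2* (0.887), *ARTN* (0.868), *ICOSLG* (0.851), *LINC00900* (0.849), *ITGA11* (0.837), *RIN3* (0.83), *CLMP* (0.798) and *LINC00511* (0.791). Among the members themselves, *CYP1A1* had an r of 0.978 with the mean profile, *AHRR* 0.932 and *CYP1B1* 0.842. Of the members outside the profile, *TIPARP* had 0.795, above *LINC00511*, whereas *ARNT2* had 0.1, *AHR* -0.295 and *ARNT* -0.323. *SLC7A5* was the only abundant gene of the 10, at 596 ± 20.6 CPM in the 24-h controls and 1510 ± 223 CPM at 1 µg/cm2 (SD, n = 3). *NKD2*, *ICOSLG* and *LINC00900* had means of only 0.318, 0.391 and 0.0257 CPM in the 24-h controls. In the fit without a block, only *SLC7A5*, *NKD2* and *ITGA11* of the 10 were called at 1 µg/cm2, and none after daily exposure. *CADM1*, *ICOSLG* and *RIN3* were not called at 30 µg/cm2 or between the doses either. When differences from the controls of the same protocol were used instead, 7 of the 10 were again among the 10 most alike.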

How the data were processed

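RNA-seq of 15 BEAS-2B libraries was used. The authors aligned single-end reads to GRCh38 with STAR and deposited featureCounts counts per gene without normalization, with an exon length for each gene. The submitters' processing notes name hg19, but the gene coordinates in the table are those of GRCh38. The annotation, strand and handling of shared reads were not given in the sources used here. Symbols came from a table of gene identifiers, which named 57392 of the 58219 genes, and exon overlaps from the exon coordinates deposited with the counts. The members and gene lists were chosen with earlier results of these data known. The genes named are the 7 members, every gene of the lists (chaperones of the receptor, bHLH-PAS proteins, classical battery, other targets, hydrocarbon metabolism, tryptophan-derived ligands, cell type markers), genes overlapping a member, and the 10 most alike in pattern. Part of 1 list is not reported here.

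The counts were fitted with edgeR 4.0.16 under R 4.3.3 (filterByExpr by condition, TMM, quasi-likelihood test in its earlier mode, 1 mean per condition, 15 libraries). The SE printed with a log2 fold-change is its size divided by the square root of the F statistic of that test. It is thus derived from the test and is not a separate estimate. Depth was 21460981 to 34724765 counts per library, so members with under 100 counts, such as *CYP1A1* and *ARNT2* in controls, carry more counting error. Alternatives were RLE scaling, no filter, the replicate block, edgeR's current mode, DESeq2 1.42.0, the likelihood ratio test, the compared libraries only, no 24-h experiment 2, and each library left out. The fit was tested on simulated data. Replicate numbers mark batches in the series record. Deviations from group means correlated at 0.201 to 0.721 between same-numbered libraries of the 24-h protocol (mean of different numbers -0.231) and at 0.121 to 0.18 in the 7-d protocol (-0.0773). Promoter sequences came from RefSeq, and longer windows from the GRCh38 genome, which matched them in 100% of starts. Tables and figures were made with Python 3.11.15, pandas 2.3.3 and matplotlib 3.10.9.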

Additional observations from a re-analysis of the deposited data

Results flagged for a closer look

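*AHR* stood out because its change differed in direction between the protocols. In each of the 3 experiments it was lower than its control after a single dose and higher after daily exposure. Within experiments, the log2 ratio to control was -0.28, -0.23 and -0.33 at 1 µg/cm2 for 24 h, -0.67, -0.78 and -0.58 at 30 µg/cm2 for 24 h, and 0.23, 0.33 and 0.33 after daily exposure. The difference between the daily and the 30 µg/cm2 response was 0.97 (SE 0.196, edgeR quasi-likelihood adjusted p = 0.0227). The difference between the daily and the 1 µg/cm2 response was 0.58 (SE 0.196, edgeR quasi-likelihood adjusted p = 0.55), and with the replicate block its adjusted p was 0.0475 at a size under the 0.6 threshold. The call against 30 µg/cm2 was lost when Control_24h replicate 3, Control_7d replicate 1 or 2, PM_24h_30dose replicate 1 or PM_7d_1dose replicate 3 was left out, with values from 0.85 to 0.96 in these fits.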

How the results depend on the processing

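With the replicate block, 6, 4, 4, 3, 0 and 1 of the 7 genes were called for 30 µg/cm2, 1 µg/cm2, daily exposure, 30 against 1 µg/cm2, daily minus single 1 and daily minus single 30, and *TIPARP* at 1 µg/cm2 and after daily exposure was the only gain. The block moved the counts over all genes from 1420 to 2681, 11 to 74, 40 to 773, 1379 to 2737, 0 to 181 and 320 to 2572, and with it no comparison between the controls of both protocols could be made. Fits of the compared libraries only called 3 of the 7 genes in place of 6 at 30 µg/cm2 and 0 in place of 3 for 30 against 1 µg/cm2, and 360, 2, 1029, 149 and 1 genes in all for 30, 1, daily, 30 against 1 and daily minus single 1. For daily minus single 1, where the report gives 0, 1 of the 7 was called without the filter, 2 by DESeq2, 1 by the likelihood ratio test and 3 without 24-h experiment 2, of 20, 66, 13 and 1766 genes in all. For daily minus single 30, 2 were called without experiment 2 in place of 1, *AHR* at 0.94 and *ARNT2* at -1.04. *AHRR* at 0.01 and *CYP1A1* at 0.62 turned in sign in that fit and were not called. *TIPARP* at 1 µg/cm2 was also called without the filter, by DESeq2, by the likelihood ratio test and without experiment 2. The cause of these changes was not tested. No filter, DESeq2 and the likelihood ratio test gave 38, 39 and 34 genes at 1 µg/cm2 and 92, 251 and 194 after daily exposure, and leaving out 24-h experiment 2 gave 3430, 378, 1083, 3113 and 3884 in the first 4 and the last of the blocked comparisons.

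Leaving out each library in turn gave 5 to 6 called genes at 30 µg/cm2, 3 to 3 at 1 µg/cm2, 0 to 3 after daily exposure, 1 to 3 for 30 against 1 µg/cm2, 0 to 1 for daily minus single 30 and 1 to 3 between the controls. Single values that changed sign in these fits were *ARNT2* at 1 µg/cm2 (-0.26 to 0.24), *TIPARP* for 30 against 1 µg/cm2 (-0.16 to 0.27), and *CYP1A1* (-0.87 to 0.34) and *ARNT* (-0.13 to 0.04) for daily minus single 30. Of 386 values under the other alternatives, 359 kept direction and side of the threshold, 8 lost a call, 17 gained a call and 2 changed sign. The 359 include the count of 7 of 10 genes again most alike in pattern, which has no direction or threshold. Of the 735 single values with a library left out, 692 kept direction and side of the threshold, 35 lost a call and 8 changed sign.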

Other observations

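The chaperone genes of the receptor, *HSP90AA1*, *HSP90AB1* and *PTGES3*, were not called against a control of the same protocol. Their log2 fold-changes at 30 µg/cm2 were -0.37 (SE 0.295), -0.06 (SE 0.217) and -0.18 (SE 0.159), and without experiment 2 *HSP90AA1* was called lower. Between the controls of both protocols, *HSP90AA1*, *HSP90AB1* and *PTGES3* were called lower at 7 d, beside 10.8% of all genes tested. The log2 fold-changes were -2.19 for *HSP90AA1* and -1.10 for *HSP90AB1*. Of 15 other bHLH-PAS genes, 13 were tested and *NPAS3* and *NPAS4* were not. At 30 µg/cm2, 2 were called lower, beside 4.24% of all genes tested. These were *HIF3A*, a hypoxia-inducible factor (-2.93, SE 0.459, edgeR quasi-likelihood adjusted p = 0.00112), and *SIM1* (-1.37, SE 0.243, edgeR quasi-likelihood adjusted p = 0.00274). Both were also lower than at 1 µg/cm2. At 1 µg/cm2 and after daily exposure 0 of the 13 were called by the edgeR quasi-likelihood fit without a block or by DESeq2, and 0 had an unadjusted p under 0.05 in either. In the fit with the replicate block 0 were called as well. There, 3 of the 13 at 1 µg/cm2 and 9 after daily exposure had an unadjusted p under 0.05, beside 8.74% and 29.5% of all genes. Without 24-h experiment 2, 10 did so after daily exposure, beside 37.5% of all genes in that fit, and *NPAS1* was called higher. With the replicate block, *EPAS1* and *NPAS1* were called higher at 30 µg/cm2, where 2681 of the 17599 genes were called in either direction.

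Of 7 genes that supply or degrade tryptophan-derived ligands, 3 were tested. None was called by the edgeR quasi-likelihood fit without a block against a control of the same protocol, although all 3 had an unadjusted p under 0.05 at 30 µg/cm2, where DESeq2 and the edgeR likelihood ratio test called *KYNU*. In turn, *KYNU*, a kynureninase, was called higher at 30 than at 1 µg/cm2 (1.56, SE 0.364, edgeR quasi-likelihood adjusted p = 0.0149). The block fit called *KYNU* higher and *KYAT1*, a kynurenine aminotransferase, lower at 30 µg/cm2, both against control and against 1 µg/cm2. In these 2 comparisons it called 2681 and 2737 of all 17599 genes. Without experiment 2, where 4 of the 7 were tested, *KYNU* and *AADAT* were called higher and *KYAT1* lower in both comparisons. That fit called 3430 and 3113 of all 17950 genes in them. Of the 11 genes called at 1 µg/cm2, *LINC00886*, chosen after its values were seen, resembled *CYP1A1* and *AHRR* in its dose order, with log2 fold-changes of 1.43 at 1 µg/cm2, 0.19 at 30 µg/cm2 and 1.33 after daily exposure.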
